A study of Mus musculus with 6 samples.

Results

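The delta cell identity genes described here are Hhex, Rbp4, Ghsr, Lepr, Etv1 and Nkx6-3, taken by symbol from the 55421 gene IDs of each count table. All 6 were found, and 5 of them had enough reads to be tested. The libraries came from pancreatic islets of wild-type C57BL/6 mice, with 3 libraries from a vehicle group and 3 from a group stimulated with the ligand insB:9-23, which by its name is a stretch of insulin's B chain. No allele or agent other than the ligand separates the groups in the labels. The labels do not say whether mice or isolated islets received the ligand, and they were read here without a dose, route, duration, sex or age. The labels tie no library to an animal or to pooled animals. Each test therefore rests on differences among 3 libraries per group that could be technical.

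Delta cells are the somatostatin-secreting cells of the islet. They are a small population that lies among beta and alpha cells and restrains the release of insulin and glucagon through somatostatin receptors on those neighbours. HHEX is the homeodomain factor needed to keep delta cells and their paracrine control in place. The ghrelin receptor GHSR lets circulating ghrelin raise somatostatin release, and the leptin receptor LEPR is another hormone receptor used as a delta cell marker in mice. RBP4 carries retinol in plasma, ETV1 is an ETS-family transcription factor of the PEA3 group, and NKX6-3 is a homeodomain factor best known from the stomach.

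The bases before the RefSeq start (GRCm38.p6) are shown, up to 250 of them, for the transcription factor that defines the cell type, for the most abundant of the 6 genes and for the ghrelin receptor, as examples of the abundant, the intermediate and the sparsely read identity genes. Capitals mark TATAAA on the strand of the gene and GGGCGG, a GC box, on either strand (CCGCCC when read from the other strand). These motifs do not overlap each other in the windows shown.
Hhex, chr19:37434591-37434809, plus strand: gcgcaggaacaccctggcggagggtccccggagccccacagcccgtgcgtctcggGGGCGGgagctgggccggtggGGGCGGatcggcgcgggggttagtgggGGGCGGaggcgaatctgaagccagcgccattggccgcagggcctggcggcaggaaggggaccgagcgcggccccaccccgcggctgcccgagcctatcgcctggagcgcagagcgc
Rbp4, chr19:38124829-38125061, minus strand: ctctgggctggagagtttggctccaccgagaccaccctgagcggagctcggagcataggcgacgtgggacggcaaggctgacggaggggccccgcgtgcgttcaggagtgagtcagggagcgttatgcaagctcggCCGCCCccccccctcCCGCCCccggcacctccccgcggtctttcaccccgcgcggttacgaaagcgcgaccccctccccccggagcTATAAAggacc
Ghsr, chr3:27371101-27371350, plus strand: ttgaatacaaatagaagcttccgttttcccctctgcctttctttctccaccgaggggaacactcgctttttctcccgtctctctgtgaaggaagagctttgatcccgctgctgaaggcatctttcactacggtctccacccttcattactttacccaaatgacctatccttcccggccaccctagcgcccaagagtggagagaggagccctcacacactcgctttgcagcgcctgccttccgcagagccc
Each sequence stops at the nearest GENCODE M21 start, which leaves out the last 31 bases for Hhex and 17 for Rbp4. The upstream part of the Rbp4 sequence overlaps a first exon of longer Rbp4 transcripts, and that of Hhex overlaps Gm38345, an unclassified transcript on the other strand. The Rbp4 window of 250 bases holds 1 TATAAA, whose first letter lies 28 bases before the RefSeq start, and 2 GC boxes. That start lies past the end of the sequence shown. The Hhex window holds 3 GC boxes and no TATAAA, and the Ghsr window holds neither motif. Of 32851 RefSeq windows of this length, 7.59% hold TATAAA and 32.7% hold GGGCGG. The Hhex, Rbp4 and Ghsr windows hold 32, 28 and 11 CG dinucleotides, against a median of 6 over all windows. Another RefSeq window of Rbp4 (chr19:38125322-38125571), not shown, holds neither motif and 5 CG dinucleotides. These matches describe the letters only, and nothing in the libraries measures binding there.

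In GENCODE M21 (GRCm38) all 6 are protein-coding genes, and no other annotated gene overlaps any of them on either strand. Hhex (ENSMUSG00000024986, 37434810 to 37440731, plus strand) and Rbp4 (ENSMUSG00000024990, 38116629 to 38125281, minus strand) both lie on chromosome 19, with 675897 bases between them. Ghsr (ENSMUSG00000051136) lies on chromosome 3 (27371351 to 27378010), Lepr (ENSMUSG00000057722) on chromosome 4 (101717404 to 101815352), Etv1 (ENSMUSG00000004151) on chromosome 12 (38779380 to 38870484) and Nkx6-3 (ENSMUSG00000063672) on chromosome 8 (23153269 to 23158948), all on the plus strand. Counts were summed over whole genes, so they do not separate the 7 annotated Lepr transcripts or the 13 of Etv1.

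The libraries held 52052808 to 58880189 counts each. All levels below are in CPM, the count relative to the TMM-adjusted library size. The TMM factor was 0.8057 in insB:9-23 replicate 3 and 1.004 to 1.083 in the others, so levels in that library depend most on the scaling. A gene with 3 reads would stand at 0.0475 to 0.0655 CPM depending on the library, and such limits cover counting error only. These limits and the counting errors below treat reads as independent, which was not tested, and they are too small if reads are not. A set of 13 acinar markers took 12.9% to 14.9% of counts in the vehicle libraries and 14.1% to 21.2% in the insB:9-23 libraries, with the highest value in insB:9-23 replicate 3. Between the groups 14 of 17016 tested genes passed the edgeR quasi-likelihood test at a Benjamini-Hochberg adjusted p below 0.05, which is 0.0823% of the genes.

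None of the 5 tested delta cell identity genes passed the edgeR test (0.0823% of all genes did). Their log2 fold changes ran from -0.40 for Ghsr to 0.68 for Lepr, with 2 above 0 and 3 below, and their median was -0.01, against 0.01 over all genes tested. At an unadjusted p below 0.05 there was 1 of the 5, Hhex, where 5.55% of all genes lay below that value. That number was 0 with library totals alone, with the replicate block, and without vehicle replicate 1, vehicle replicate 3 or insB:9-23 replicate 1, and with the acinar marker share in the model the 1 gene was Lepr, not Hhex. DESeq2 called 0 of the 5 at an adjusted p below 0.05, where it called 0.685% of the genes to which it gave an adjusted p. Sst, the somatostatin gene and the defining product of these cells, was at 2387, 2415 and 2458 CPM in the vehicle libraries (replicates 1 to 3, the order used throughout). With the ligand it was at 2525, 2527 and 2226 CPM, a log2 fold change of 0.00 ± 0.08 (SE; edgeR adjusted p = 0.995). With library totals alone, without TMM scaling, it was -0.14 ± 0.18 (SE; edgeR adjusted p = 0.872). Sst and the 6 identity genes together took 0.269% to 0.272% of total counts in vehicle and 0.19% to 0.28% with the ligand. The 0.19% was in insB:9-23 replicate 3, where the beta (9.42%) and alpha (1.45%) marker shares were also lowest. In bulk islet RNA, fewer delta cells and less RNA per delta cell cannot be told apart for any of these genes.

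**Figure D1:**
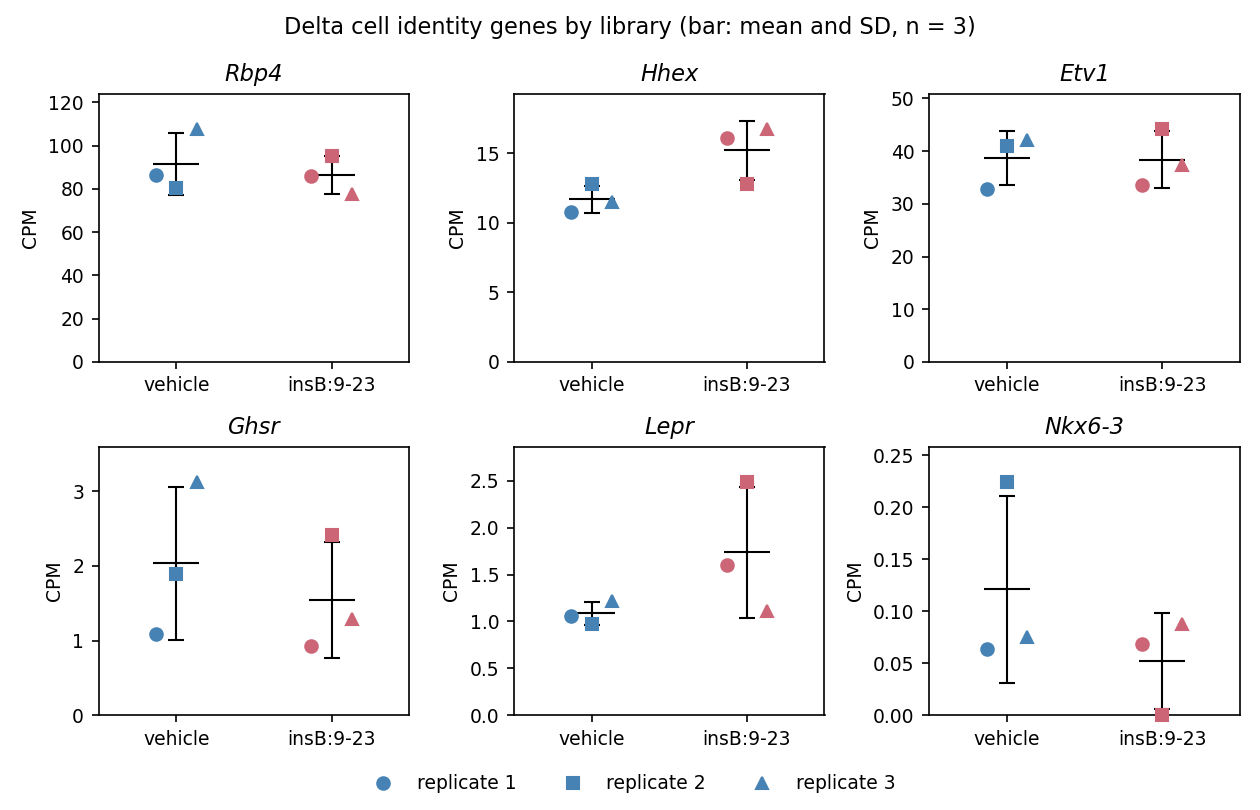
Level of each delta cell identity gene in CPM (vertical axis, from 0) in 3 vehicle and 3 insB:9-23 libraries, with 1 symbol per replicate and a bar for the mean and SD. The groups overlap for Rbp4, Etv1, Ghsr, Lepr and Nkx6-3, while for Hhex the lowest insB:9-23 library (12.79 CPM) lies just above the highest vehicle library (12.76 CPM).

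Levels between genes were compared per kilobase of exon. Rbp4 was the most abundant of the 6, at 68.2 ± 10.7 CPM per kb in vehicle and 64.2 ± 6.58 after insB:9-23 (SD, n = 3). Etv1 (2.91 ± 0.387 and 2.89 ± 0.412 CPM per kb) and Hhex (2.31 ± 0.197 and 3.01 ± 0.421 CPM per kb) followed, and their ranges over the 6 libraries overlapped, so their order was not resolved. Ghsr (0.46 ± 0.232 and 0.348 ± 0.176 CPM per kb) and Lepr (0.154 ± 0.0173 and 0.246 ± 0.0989 CPM per kb) came next, again with overlapping ranges. Nkx6-3 was last, with at most 0.1 CPM per kb in any library, below the lowest Lepr value of 0.139. Sst stood far above all of them, at 3360 ± 50 CPM per kb in vehicle and 3360 ± 240 after the ligand. Exon lengths are those of all annotated transcripts merged, which is long for Etv1 (13296 bases), so its level per kb is a low estimate if the islet uses shorter transcripts.

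Among the transcription factors, Hhex was the only 1 of the 5 tested genes whose groups did not overlap, and it did not pass the adjusted test. It was at 10.8, 12.8 and 11.5 CPM in the vehicle libraries, and with the ligand at 16.1, 12.8 and 16.8 CPM. The treated libraries lay higher, but the groups were separated by only 0.03 CPM between vehicle replicate 2 and insB:9-23 replicate 2. Groups that do not overlap, with insB:9-23 higher, were found for 6.4% of all tested genes. With insB:9-23 lower they were found for 7.12% of all genes and for 0 of the 5, and in either direction for 13.5% and for 1 of the 5. The mean went from 11.7 ± 0.996 to 15.2 ± 2.13 CPM (SD, n = 3), a log2 fold change of 0.38 ± 0.14 (SE; edgeR adjusted p = 0.881). The unadjusted 95% interval ran from 1.02-fold to 1.66-fold higher. With library totals alone, without TMM scaling, the log2 fold change was 0.22 ± 0.16 (SE; edgeR adjusted p = 0.822). The separation of the groups was read on the TMM scale and not on library totals. The 2 highest Hhex libraries in CPM, insB:9-23 replicates 1 and 3, were also those with the most acinar marker RNA, 15.8% and 21.2% of counts. With the acinar marker share in the model, the log2 fold change was 0.23 ± 0.15 (SE; edgeR adjusted p = 0.961). The acinar share itself ran from 12.9% to 14.9% in vehicle and from 14.1% to 21.2% with the ligand. The part of acinar RNA in the Hhex value was not tested.

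Etv1, an ETS factor that is also used as a marker of pancreatic polypeptide cells, did not differ beyond its spread. It was at 32.8, 41 and 42.2 CPM in the vehicle libraries, and with the ligand at 33.5, 44.3 and 37.4 CPM. In both groups replicate 1 was the lowest library, and the ranges overlapped nearly in full. The log2 fold change was -0.01 ± 0.15 (SE; edgeR adjusted p = 0.994), and its unadjusted 95% interval ran from 0.773-fold to 1.28-fold. Its sign depended on single libraries, and it was 0.04 without vehicle replicate 2, 0.06 without vehicle replicate 3, 0.08 without insB:9-23 replicate 1 and 0.01 without insB:9-23 replicate 3.

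Nkx6-3 was at the edge of detection. Its counts were 4, 14 and 4 in the vehicle libraries, and with the ligand 4, 0 and 4. The most counts, 0.224 CPM, were in vehicle replicate 2, and the 0 in insB:9-23 replicate 2 allows a level of up to 0.0534 CPM at that depth. It did not pass the filter on low counts, and fitted without that filter its log2 fold change was -1.20 ± 1.54 (SE; edgeR adjusted p = 0.893). No difference in Nkx6-3 was detectable at this depth. The stomach, where the gene is best known, was read through 12 markers of gastric and duodenal epithelium, which together took 0.0362% to 0.0408% of counts in vehicle and 0.0375% to 0.0516% with the ligand. Of the 12, 4 (Gkn1, Gkn2, Tff1 and Atp4b) had 0 counts in all 6 libraries, and 8 in all had fewer than 10 in any library. Tff2 had 15000 to 24782 counts, Vil1 4153 to 5828, Atp4a 380 to 539 and Muc6 4 to 25. The part of such cells in the Nkx6-3 counts was not tested.

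Rbp4, the secreted retinol carrier, was the identity gene with the deepest coverage, with 3555 to 5756 counts per library. It was at 86.6, 80.4 and 108 CPM in the vehicle libraries, and with the ligand at 85.8, 95.3 and 77.7 CPM. The highest library was in the vehicle group and the lowest in the treated group, with the others interleaved. The log2 fold change was -0.09 ± 0.14 (SE; edgeR adjusted p = 0.944), with an unadjusted 95% interval from 0.748-fold to 1.19-fold. Without vehicle replicate 3 it was 0.05. Rbp4 is also a liver and fat product. Of 7 hepatocyte markers, Ttr, which islet alpha cells also make, had 44405 to 73004 counts per library, and the other 6 had at most 103, with Alb, the albumin gene, at 34 to 69. The 7 together took 0.099% to 0.113% of counts in vehicle and 0.0783% to 0.136% with the ligand. Of 6 adipocyte markers, Fabp4 had 161 to 263 counts, Lep had 0 in all libraries, and the other 4, among them the adiponectin gene Adipoq, had at most 8. The 6 took 0.000323% to 0.000471% of counts in vehicle and 0.000292% to 0.000464% with the ligand, and the part of either tissue in the Rbp4 level was not tested. Ffar4, a fatty acid receptor found in delta cells, lies 2365 bases from Rbp4 on the same chromosome. It was at 0.997, 5.72 and 0.993 CPM in the vehicle libraries, and with the ligand at 5.96, 1.49 and 2.27 CPM (log2 fold change 0.33 ± 0.90, SE; edgeR adjusted p = 0.972), so vehicle replicate 2 and insB:9-23 replicate 1 stood above the rest.

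Of the hormone receptors, Ghsr had few reads and varied the most. It was at 1.09, 1.89 and 3.13 CPM in the vehicle libraries, from 69, 118 and 167 counts. With the ligand it was at 0.922, 2.42 and 1.29 CPM, from 54, 136 and 59 counts. The groups overlapped widely, and libraries of the same group differed by more than the group means did. The coefficient of variation was 50.4% in vehicle and 50.6% in the ligand group, where counting error alone gives 9.21% and 11%. The log2 fold change was -0.40 ± 0.52 (SE; edgeR adjusted p = 0.933), and its unadjusted 95% interval ran from 0.312-fold to 1.84-fold, an interval too wide to exclude a large change in either direction. It was 0.05 without vehicle replicate 3.

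Lepr was close to constant in the vehicle group and scattered in the ligand group. It was at 1.06, 0.978 and 1.22 CPM in the vehicle libraries, from 61 to 67 counts. With the ligand it was at 1.6, 2.49 and 1.11 CPM, from 94, 140 and 51 counts. Replicates 1 and 2 of the ligand group lay above every vehicle library, and replicate 3 lay inside the vehicle range. The coefficient of variation was 11.2% in vehicle, near the 12.5% of counting error, and 40.2% in the ligand group, against 10.3% from counting. The log2 fold change was 0.68 ± 0.36 (SE; edgeR adjusted p = 0.881), with an unadjusted 95% interval from 0.876-fold to 2.92-fold.

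The Lepr value rested in large part on insB:9-23 replicate 2, and without that library the log2 fold change was 0.33. That library also held the most RNA of immune cell markers. The 7 macrophage markers took 0.017% of its counts against 0.00622% to 0.0108% in the others. The 6 markers of B lineage cells took 0.00644%, against 0.00054% to 0.00124% in the others, and the 6 markers of T or NK cells 0.00116%, against 9.5e-05% to 0.00025%. The part of these cells in the Lepr value was not tested. With the acinar marker share in the model the log2 fold change of Lepr was 1.01 ± 0.33 (SE; edgeR adjusted p = 0.943).

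**Figure D2:**
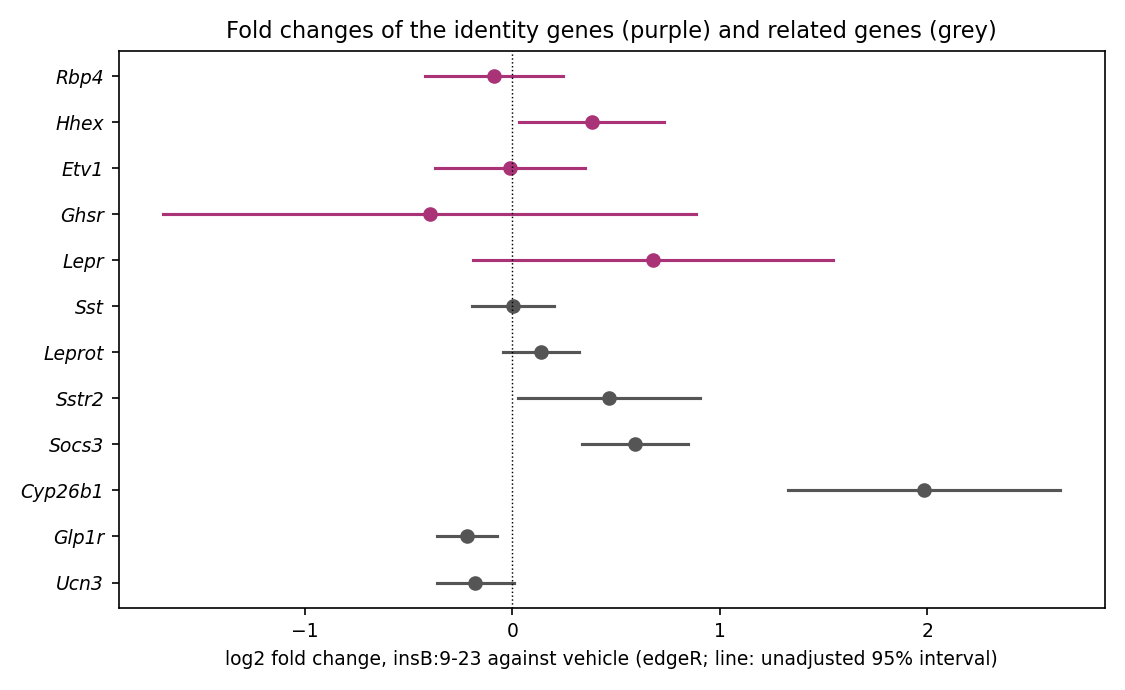
Log2 fold change of insB:9-23 against vehicle (horizontal axis, edgeR) with its unadjusted 95% interval for the 5 tested delta cell identity genes (purple) and for related genes (grey). The intervals of Rbp4, Etv1, Ghsr and Lepr include 0, that of Hhex starts at 0.03, and Cyp26b1 lies farthest from 0 at 1.98, although none of the genes shown passed the adjusted test.

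Since Sst comes from the same cells, each gene was also expressed per 1000 Sst counts, a ratio that, for a gene expressed in delta cells alone, does not move with their share of the RNA. With 3 libraries against 3, the smallest p of the two-sided exact permutation test is 0.1. Hhex was at 4.82 ± 0.404 per 1000 Sst counts in vehicle and 6.32 ± 1.24 after insB:9-23 (SD, n = 3; exact p = 0.2). On this scale its groups overlapped, because insB:9-23 replicate 2 (5.06) fell below vehicle replicate 2 (5.28). Lepr was at 0.448 ± 0.0454 and 0.707 ± 0.25 per 1000 Sst counts (exact p = 0.1). Its groups were separated only by the step from 0.495 in vehicle replicate 3 to 0.5 in insB:9-23 replicate 3. In CPM the Lepr groups overlapped, and the share of all genes without overlap on the Sst scale was not computed. With the sum of 5 hormone genes in place of Sst, the exact p for Lepr was 0.2. Rbp4 (37.8 ± 5.45 and 35.5 ± 1.96 per 1000 Sst counts, exact p = 0.7), Etv1 (16 ± 1.94 and 15.9 ± 2.28, exact p = 0.8) and Ghsr (0.838 ± 0.41 and 0.634 ± 0.3, exact p = 0.5) overlapped between the groups. The 5 p-values were not adjusted, and none could pass a threshold of 0.05 in this design.

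**Figure D3:**
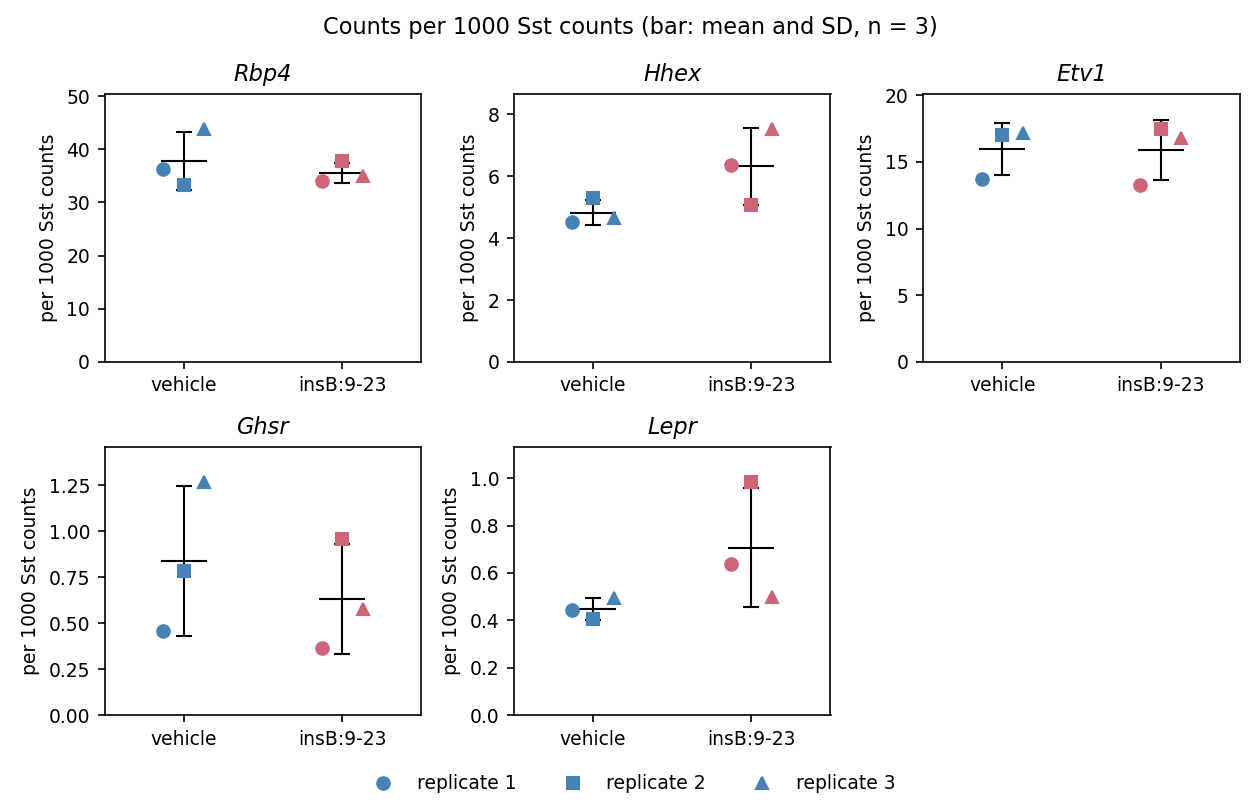
Counts of 5 delta cell identity genes per 1000 Sst counts (vertical axis, from 0) in each library, with a bar for the mean and SD of 3 libraries. Rbp4, Hhex, Etv1 and Ghsr overlap between the groups. Lepr is separated only by the step from 0.495 to 0.5, and its groups overlap in CPM.

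For each tested gene, the genes with the nearest profile over the 6 libraries were those with the smallest root mean square difference of mean-centred log2 CPM, among 12581 candidates with a mean of at least 1 CPM. For Hhex these were Slc1a4 (0.05) and Bcorl1 (0.06), for Rbp4 Tmem234 (0.04) and St3gal6 (0.04), and for Etv1 Chtop (0.04) and Lrpap1 (0.05). Acp5 (0.09) and Fgd3 (0.09) were nearest to Lepr, and Ak1 (0.19) and Mrps14 (0.24) to Ghsr. With 6 libraries and this many candidates, close matches arise for most profiles, and the names describe likeness only. None of the 5 tested identity genes was among the nearest profiles named here for another. So few of the 12581 candidates are named that this cannot show whether the identity genes vary together. The identity gene that was not tested had no such comparison.

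The genes around these 6 were read in 9 lists, none of which had a member past the edgeR test over all genes. Somatostatin acts on receptors of the SSTR family. Sstr2 was at 2.47, 2.29 and 2.32 CPM in the vehicle libraries, and with the ligand at 3.57, 3.34 and 2.88 CPM (log2 fold change 0.47 ± 0.18, SE; edgeR adjusted p = 0.881). Every treated library lay above every vehicle library, as in 6.4% of all genes. Sstr1 was at 1.24 ± 0.339 and 0.98 ± 0.249 CPM (edgeR adjusted p = 0.91). Sstr3 was at 155 to 173 CPM in 5 libraries and at 13.2 CPM in insB:9-23 replicate 1. Sstr4 and Sstr5 had at most 8 and 4 counts and were not tested.

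Other genes used as delta cell markers showed no common direction. Of 17 tested, 9 had a fold above 0 and 8 below, with a median log2 fold change of 0.00. At an unadjusted p below 0.05 there was 1 gene, where 5.55% of all genes lay below that value. That gene was Glp1r, the GLP-1 receptor, which is mainly a beta cell gene, at 201 ± 8.7 and 173 ± 5.19 CPM (log2 fold change -0.22 ± 0.06, SE; edgeR adjusted p = 0.881). Casr, which senses extracellular calcium, averaged 57.2 ± 8.91 CPM in vehicle and 46.2 ± 3.25 with the ligand (edgeR adjusted p = 0.881). In the urocortin input, Ucn3, the beta cell peptide that drives somatostatin release, was at 281 ± 7.51 and 248 ± 20.7 CPM (log2 fold change -0.18 ± 0.08, SE; edgeR adjusted p = 0.881). Its receptor Crhr2 averaged 1.32 ± 0.334 CPM in vehicle and 1.2 ± 0.251 with the ligand (edgeR adjusted p = 0.968), within its spread.

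Around the ghrelin receptor, 11 of 12 genes were tested and 0 had an unadjusted p below 0.05, against 5.55% of all genes. Ghrl, which encodes ghrelin, was at 0.507, 1.71 and 1.8 CPM in the vehicle libraries, and with the ligand at 1.4, 1.71 and 3.76 CPM, with overlapping groups (edgeR adjusted p = 0.897). Mboat4, the acyltransferase that activates ghrelin, had at most 8 counts. The calcium release channels Itpr1 (196 ± 3.09 and 182 ± 2.57 CPM) and Itpr3 (137 ± 11.4 and 121 ± 10.4 CPM) had the smallest p of the list, each with an edgeR adjusted p of 0.881.

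Around the leptin receptor, Lep had 0 counts in all 6 libraries, which allows at most 0.0655 CPM in any of them. Socs3, a feedback inhibitor of cytokine and leptin receptors, was at 23.3, 21 and 22.5 CPM in the vehicle libraries, and with the ligand at 33.1, 30.3 and 37.4 CPM. All treated libraries lay above all vehicle libraries, as in 6.4% of all genes. Its log2 fold change was 0.59 ± 0.11 (SE; edgeR adjusted p = 0.384), and DESeq2 gave an adjusted p of 0.00238. Stat3, the transcription factor downstream of the receptor, averaged 130 ± 18 CPM in vehicle and 111 ± 8.25 with the ligand (edgeR adjusted p = 0.881). The kinase Jak2 averaged 34.7 ± 0.901 and 34.4 ± 1.92 CPM (edgeR adjusted p = 0.987). Leprot, which shares its name with the receptor but is a separate upstream gene in this annotation, was at 29.3 ± 1.54 and 32.3 ± 0.409 CPM (edgeR adjusted p = 0.881).

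The retinoid list around the retinol carrier had a median log2 fold change of 0.21 over 14 tested genes, against 0.01 over all genes, with 11 above 0. The share of all genes above 0 was not computed. At an unadjusted p below 0.05 there was 1 of the 14, Cyp26b1, where 5.55% of all genes lay below that value. Cyp26b1, which degrades retinoic acid, was at 1.03, 1.11 and 0.675 CPM in the vehicle libraries (36 to 69 counts), and with the ligand at 3.26, 4.14 and 3.74 CPM (171 to 233 counts). The lowest treated library held almost 3 times the level of the highest vehicle library. Groups without overlap and with insB:9-23 higher, at any distance, made up 6.4% of all genes. Its log2 fold change was 1.98 ± 0.27 (SE; edgeR adjusted p = 0.179), and DESeq2 gave an adjusted p of 6.6e-08. Rxrb, a nuclear receptor for retinoids, averaged 19.1 ± 2.35 CPM in vehicle and 24.9 ± 4.4 with the ligand (edgeR adjusted p = 0.881). Ttr, the partner of RBP4 in plasma and an alpha cell product in the islet, was at 1020 ± 82.6 and 1130 ± 164 CPM (edgeR adjusted p = 0.898). Stra6, the RBP4 receptor, had no more than 14 counts in any library.

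The lists around the transcription factors had medians near that of all genes. In the PEA3 and FGF feedback list, 13 genes were tested with a median log2 fold change of -0.00. Of these, 0 lay below an unadjusted p of 0.05, against 5.55% of all genes. Etv5, a close relative of Etv1, was at 24.2 ± 2.79 and 17.6 ± 7.24 CPM (edgeR adjusted p = 0.895), with its lowest value, 9.61 CPM, in insB:9-23 replicate 3. Spred2, a MAPK inhibitor, was at 5.13 ± 1.01 and 6.46 ± 0.0937 CPM, and Spry4, another inhibitor of the pathway, at 11.3 ± 0.111 and 9.73 ± 1.29 CPM (each edgeR adjusted p = 0.881). Among 7 tested islet homeobox factors (median -0.07), Isl1 averaged 61.5 ± 1.96 CPM in vehicle and 69.2 ± 6.4 with the ligand (edgeR adjusted p = 0.881). Nkx2-2, needed for endocrine differentiation, averaged 99.2 ± 1.74 and 91.2 ± 8.69 CPM (edgeR adjusted p = 0.89). Of 9 partners and corepressors of HHEX (median 0.02), 1 had an unadjusted p below 0.05, as did 5.55% of all genes. It was Pml, at 21.3 ± 2.06 and 17.4 ± 1.07 CPM (edgeR adjusted p = 0.881). Eif4e, a translation factor that HHEX binds, was at 34.1 ± 11.9 and 24.2 ± 3.36 CPM (edgeR adjusted p = 0.881). Among the genes named from the lists, groups without overlap went both ways. With insB:9-23 lower they were those of Glp1r, Casr, Ucn3, Itpr1, Spry4 and Pml, as in 7.12% of all genes. Besides Sstr2, Socs3 and Cyp26b1, they were higher for Leprot, Rxrb, Spred2 and Isl1, as in 6.4% of all genes.

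**Figure D4:**
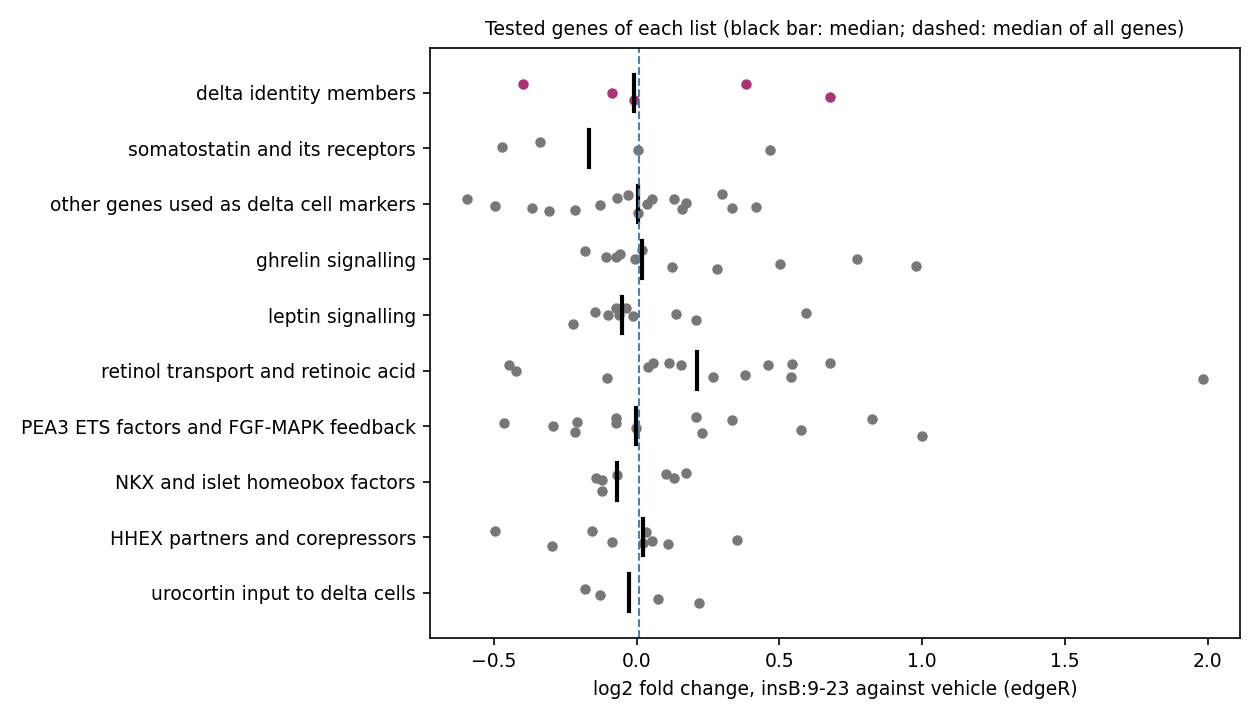
Log2 fold change of insB:9-23 against vehicle (horizontal axis, edgeR) for each tested gene of the delta cell identity set (purple) and of 9 related lists (grey), with black bars for list medians and a dashed line for the median of all genes. The median of the identity set (-0.01) lies beside the dashed line (0.01), and the point farthest right is Cyp26b1 at 1.98.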

How the data were processed

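The values are raw counts of reads for each Ensembl gene, deposited as a separate file for every library. HISAT, featureCounts 1.5.0-p3, DESeq 1.8.3 and GRCm38 are named, without roles, in the submitters' processing notes. No source used here gives the annotation release or the strand setting. Libraries were made with a KAPA stranded kit from TRIzol RNA, per the labels' protocols. Groups and replicate numbers came from sample titles.

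Symbols, positions and exon lengths came from GENCODE M21 (55240 of 55421 IDs matched), and promoter windows from RefSeq. The test was that of edgeR 4.0.16, run under R 4.3.3 (filterByExpr, TMM, robust quasi-likelihood F test, both groups of 3), with Benjamini-Hochberg adjustment over 17016 genes. A standard error is the log2 fold change over the square root of F. DESeq2 1.42.0 and limma 3.58.1 (voom) were alternatives, beside other scalings, filters, an acinar covariate, a replicate block and leaving out each library. On simulated data for this comparison (16478 genes tested), edgeR called 67 of 100 genes simulated at 4-fold and 21 of 100 at 2-fold, and 11 of its 99 calls were false. Libraries of a group differed by a chi-square of 79.96 to 247.1 per degree of freedom, so none was a repeat deposit of another in its group. Libraries of different groups were not compared in this way.

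The members and lists were chosen with earlier results of these data known. Named genes are the 6 members, Sst, Leprot, the 2 genes with the smallest p in each list, the 6 most abundant list genes per kb (Sst, Ttr, Ucn3, Rbp4, Pdx1 and Neurod1) and the 2 nearest profiles of each tested member. Other named genes were chosen after their values were seen. The list symbol Hlxb9 matched no ID.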

Additional observations from a re-analysis of the deposited data

How the results depend on the processing

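None of the delta cell identity genes was called under any of the alternatives run, whether scaling, filter, tool, threshold of 0.10, covariate, block or a library left out. Over all genes, the count of 14 was 116 with DESeq2, 9 with at least 10 counts in every library and 9 with the acinar covariate. Leaving out 1 library gave 16 to 26 genes, with 23 without vehicle replicate 1, 25 without insB:9-23 replicate 1 and 26 without insB:9-23 replicate 3. Libraries of the same replicate number did not vary alike over all genes (correlations of deviations of -0.035, -0.064 and -0.025). These values cannot exclude a pairing that shows in some genes only. With the replicate block edgeR called 0 genes, with 605 at an unadjusted p below 0.05. Library totals alone shifted the median of all genes to -0.15, and gave -0.14 for Sst and -0.011 for Leprot.

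None of the folds whose sign turned was called, and that of Ghsr (-0.40) was the only one of them beyond 0.2 in size. Etv1 was 0.002 with upper-quartile scaling and 0.009 with the acinar covariate. Leaving out 1 library moved log2 folds from -0.125 to 0.083 for Etv1, from -0.173 to 0.047 for Rbp4, from -0.882 to 0.049 for Ghsr, from 0.31 to 0.49 for Hhex and from 0.33 to 0.92 for Lepr. It moved the log2 ratio to Sst from -0.116 to 0.113 for Etv1 and from -0.168 to 0.031 for Rbp4. Sst was -0.001 with limma-voom, 0 without a filter, and -0.027 to 0.065 with 1 library left out. Crhr2 was -0.277 to 0.087 with 1 library left out. The causes were not tested. Socs3 and Cyp26b1 passed with DESeq2 only. Nkx6-3 had at most 14 counts per library, while the spread of Ghsr in both groups and of Lepr in the ligand group was well above counting error.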

Other observations

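Several genes of the lists were set apart by a single library, and they were chosen here after their values were seen. Sstr3, a somatostatin receptor, had 772 counts in replicate 1 of the insB:9-23 group, where the other 5 libraries had 7203 to 10144. Cd24a, a surface glycoprotein gene, had 24 counts in the same library and 3265 to 5450 elsewhere. Neurod1, an endocrine transcription factor, had 1459 counts in vehicle replicate 2 and 7900 to 11306 elsewhere. Of 55 list genes at 10 CPM or more in at least 5 libraries, these 3 had 1 library at least 5-fold under the other 5. Hhex, Rbp4 and Etv1 are among the 55 and showed no such library. Over all genes the same held for 106 of 7861 (1.35%), and the low library was vehicle replicate 1, 2 or 3 for 21, 17 and 13 genes and insB:9-23 replicate 1, 2 or 3 for 23, 15 and 17.

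Nkx6-1, the beta cell relative of Nkx6-3, differed several-fold within each group. It had 20320, 4477 and 1698 counts in the vehicle libraries (replicates 1 to 3), and with the ligand 4095, 15480 and 2073. Pdx1, a factor of beta and delta cells, had 3432 counts in vehicle replicate 1, and elsewhere 5727 to 9772.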
